A study of Mus musculus with 36 samples.

Results

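The Toll-like receptors Tlr1, Tlr2, Tlr3, Tlr4, Tlr5, Tlr6, Tlr7 and Tlr9 and their adaptor Myd88 were followed through 36 ATAC-seq libraries of sorted mouse bone marrow cells. ATAC-seq marks open chromatin by the places where a transposase can cut, and each library came as a list of peaks. The peaks of all libraries were merged where they shared at least 1 bp, which gave 105005 regions, and a region was given to a member when the transcription start site (TSS) nearest to its centre, among those of protein-coding genes, was that of the member. This rule left 85 regions: 22 for Tlr4, 17 for Tlr5, 13 for Tlr7, 11 for Tlr2, 8 for Tlr1, 6 for Tlr3, 4 for Tlr9, 2 for Tlr6 and 2 for Myd88, against a median of 4 per gene over the 17843 genes with any region. The rule used positions and not heights. A nearest gene need not be the gene that a region acts on, and open chromatin is not a measure of RNA or protein.

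The mice were untreated C57BL/6, young at 10 weeks or aged at 20 months, and by the study's methods they were female. The study's outline of the experiment has the marrow of each age pooled before sorting in duplicate. The study calls the replicates biological, but as it describes pooling and the labels do not tie libraries to separate mice, p-values may measure only the spread between sorted samples. Each library was made from 20000 cells of one of 8 fractions, named by surface markers. Haematopoietic stem cells (HSCs) were IL-7-, Lin-, Sca-1+, c-kit+ (LSK) and CD34-, CD150+, CD48- and Flt3-, with 4 libraries per age. The other LSK fractions were the multipotent progenitors MPP1 (CD150+, CD48-), MPP2 (CD150+, CD48+), MPP3 (CD150-, CD48+, Flt3-) and MPP4 (CD150-, CD48+, Flt3+), all of them CD34+. Granulocyte-monocyte progenitors (GMPs) were Sca-1-, c-kit+, FcgR+ and CD34+, megakaryocyte-erythroid progenitors (MEPs) were FcgR- and CD34-, and common lymphoid progenitors (CLPs) were IL-7+, Lin-, Sca-1 low and c-kit low. Every fraction other than HSC had 2 libraries per age. As these are bulk samples, fewer open cells and less open chromatin per cell cannot be told apart.

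Toll-like receptors recognise molecules shared by many microbes and are best known from macrophages, neutrophils and dendritic cells. TLR2, paired with TLR1 or TLR6, binds bacterial lipoproteins, TLR4 senses lipopolysaccharide and TLR5 flagellin at the cell surface, while TLR3, TLR7 and TLR9 read double-stranded RNA, single-stranded RNA and unmethylated CpG DNA in endosomes. All of these except TLR3 signal through MyD88, which recruits IRAK kinases and leads to NF-kB and inflammatory cytokines, and stem and progenitor cells of the marrow are known to carry some of these receptors too.

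The sequences of 6 regions are shown because the comparisons turn on them: 3 regions at or near a start site (Tlr9 region 1, Tlr6 region 2 and Tlr5 region 11) that no HSC library called, and 3 distal regions (Tlr5 region 15, Tlr2 region 6 and Myd88 region 1) that nearly every library outside the MEPs called. They were read from RefSeq's GRCm38.p6 (mm10) around the summits, on the gene's strand. Tlr9 region 1 is chr9:106222378-106222597 on the plus strand, Tlr6 region 2 is chr5:64960850-64961149 on the minus strand and Tlr5 region 11 is chr1:182953714-182954013 on the plus strand. Tlr5 region 15 is chr1:182983034-182983322 on the plus strand, Tlr2 region 6 is chr3:83863015-83863314 on the minus strand and Myd88 region 1 is chr9:119334372-119334671 on the minus strand. Capitals mark matches to the motifs described after them.
Tlr9 region 1: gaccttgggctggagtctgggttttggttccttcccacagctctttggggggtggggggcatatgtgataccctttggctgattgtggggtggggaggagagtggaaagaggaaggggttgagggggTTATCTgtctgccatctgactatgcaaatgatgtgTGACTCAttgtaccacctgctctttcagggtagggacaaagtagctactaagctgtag
Tlr6 region 2: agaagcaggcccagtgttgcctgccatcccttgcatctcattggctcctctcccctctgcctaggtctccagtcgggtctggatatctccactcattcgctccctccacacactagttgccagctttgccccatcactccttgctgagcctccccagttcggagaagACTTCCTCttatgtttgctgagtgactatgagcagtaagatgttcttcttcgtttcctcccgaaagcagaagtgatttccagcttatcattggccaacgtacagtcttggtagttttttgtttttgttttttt
Tlr5 region 11: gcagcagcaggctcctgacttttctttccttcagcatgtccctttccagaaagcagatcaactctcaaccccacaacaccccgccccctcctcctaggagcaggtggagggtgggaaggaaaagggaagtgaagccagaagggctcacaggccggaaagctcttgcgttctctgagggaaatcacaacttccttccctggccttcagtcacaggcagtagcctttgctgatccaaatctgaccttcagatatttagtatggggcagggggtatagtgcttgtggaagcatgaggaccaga
Tlr5 region 15: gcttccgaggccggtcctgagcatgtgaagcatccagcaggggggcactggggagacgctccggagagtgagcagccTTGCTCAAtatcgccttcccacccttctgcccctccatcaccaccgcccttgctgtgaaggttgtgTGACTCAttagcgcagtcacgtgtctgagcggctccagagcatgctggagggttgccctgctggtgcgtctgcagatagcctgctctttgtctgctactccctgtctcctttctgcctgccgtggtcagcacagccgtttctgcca
Tlr2 region 6: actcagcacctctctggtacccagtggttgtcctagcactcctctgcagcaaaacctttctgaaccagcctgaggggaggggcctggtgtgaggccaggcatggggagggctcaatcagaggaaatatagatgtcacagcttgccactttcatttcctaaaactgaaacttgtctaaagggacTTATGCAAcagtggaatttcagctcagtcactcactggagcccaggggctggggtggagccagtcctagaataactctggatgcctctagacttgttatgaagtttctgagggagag
Myd88 region 1: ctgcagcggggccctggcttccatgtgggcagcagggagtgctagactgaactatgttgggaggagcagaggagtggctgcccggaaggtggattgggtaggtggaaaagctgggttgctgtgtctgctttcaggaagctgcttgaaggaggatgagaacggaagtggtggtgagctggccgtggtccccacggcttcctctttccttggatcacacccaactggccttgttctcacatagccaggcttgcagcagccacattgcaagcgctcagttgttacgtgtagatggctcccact

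Motifs of 6 factor families were searched on both strands: GAGGAAGT for PU.1, TTGCNNAA for C/EBP, GAAA followed after any 2 bases by GAAA for interferon response elements (ISRE), TGANTCA for AP-1, TGTGGT for RUNX and AGATAA for GATA. In the printed sequences no matches overlapped. Counted from 1 at the first printed base, Tlr9 region 1 held a GATA match at bases 128 to 133 and an AP-1 match at bases 163 to 169, and Tlr6 region 2 held a PU.1 match at bases 168 to 175. Tlr5 region 15 held a C/EBP match at bases 78 to 85 and an AP-1 match at bases 144 to 150, and Tlr2 region 6 held a C/EBP match at bases 184 to 191. In Tlr5 region 11 and Myd88 region 1 none of these letters occurred. Over windows of 300 bases around the summits, 50 member regions of 7 genes could be read (those of Tlr4 and Tlr7 were not read), beside 104825 regions of the catalogue. PU.1 letters were in 12% of the member windows and 9.77% of the catalogue, C/EBP letters in 14% and 16.8%, and ISRE letters in 2% and 5.42%. AP-1 letters were in 16% and 14.2%, RUNX letters in 38% and 31.9%, and GATA letters in 6% and 14.2%. A match describes letters only and is not a binding site.

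Libraries differed in how many peaks they held: 52576 to 63288 in GMPs, 9581 to 11041 in MEPs and 27087 to 40157 in the others. The median fold enrichment (peak height over local background, the height used throughout) at regions that every library called was 18.5 to 20.3 in GMPs, 7.52 to 7.77 in MEPs and 11.6 to 15.5 in the rest. Values printed per library are as deposited and so hold this offset between fractions, which the tests of heights remove by centring. The part of the peak numbers in the differences in calls was not tested. Of the 4 GMP marker genes with a start-site region (Mpo, Elane, Ctsg and Cebpe), GMP libraries called 3 or 4, and HSC, MPP1, MPP2, MEP and CLP libraries called none. Of 5 mature neutrophil marker genes (S100a8, S100a9, Camp, Ltf and Itgam), GMP libraries called 3 to 5, with a summed fold enrichment of 59.9 to 80.7. HSC and MEP libraries called 0, MPP1, MPP2 and CLP libraries 0 to 1, MPP3 libraries 0 to 4 and MPP4 libraries 0 to 3. The highest MPP3 and MPP4 counts were those of replicate 2 of young MPP3 and replicate 2 of young MPP4. The macrophage gene Adgre1 was called in every GMP library at 20.8 to 25.5, in all 4 MPP4 libraries (mean 6.43) and in 2 libraries each of MPP3 and CLP. No HSC, MPP1, MPP2 or MEP library called it. The erythroid factor genes Gata1 and Klf1 had no start-site region in any library. Of the CLP markers with a start-site region, Il7r was called in all MPP4, GMP and CLP libraries, Ebf1 in 29 libraries, all HSC and GMP libraries among them, and Rag1 in 2 CLP libraries. Of 5 HSC marker genes with such a region, HSC libraries called 2 to 4 and GMP libraries 4 or 5. Of 3 mature B cell genes none had a start-site region.

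Chromatin near the receptors was most widely open in GMPs. GMP libraries called 49 to 58 of the 85 regions (57.6% to 68.2%), HSC libraries 18 to 26, MPP1 24 to 28, MPP2 21 to 30, MPP3 19 to 24, MPP4 23 to 25, CLP 17 to 31 and MEP 0 to 2. The GMP range lay above that of every other fraction and the MEP range below. The catalogue itself was called at 48.4% to 58.5% in GMP libraries and 8.85% to 10.2% in MEP libraries. In the other 6 fractions libraries called 20% to 36.5% of the member regions and 24.97% to 36.8% of the catalogue, ranges that largely overlap. No member region was called in all 36 libraries, against 5.08% of the catalogue, and 2.35% of the member regions were called in any MEP library, against 13.3%. Regions called only in GMP libraries made up 34.1% of the members (29 regions) and 24.1% of the catalogue, and those called in no HSC library 63.5% (54 regions) and 50.8%. The centre of 5.88% of the member regions, against 11.6%, lay at a promoter, from 1000 bp before to 100 bp after a TSS. This count leaves out Tlr2 region 3, Tlr4 region 5 and Tlr3 region 1, which span a TSS but are centred farther downstream.

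**Figure D1:**
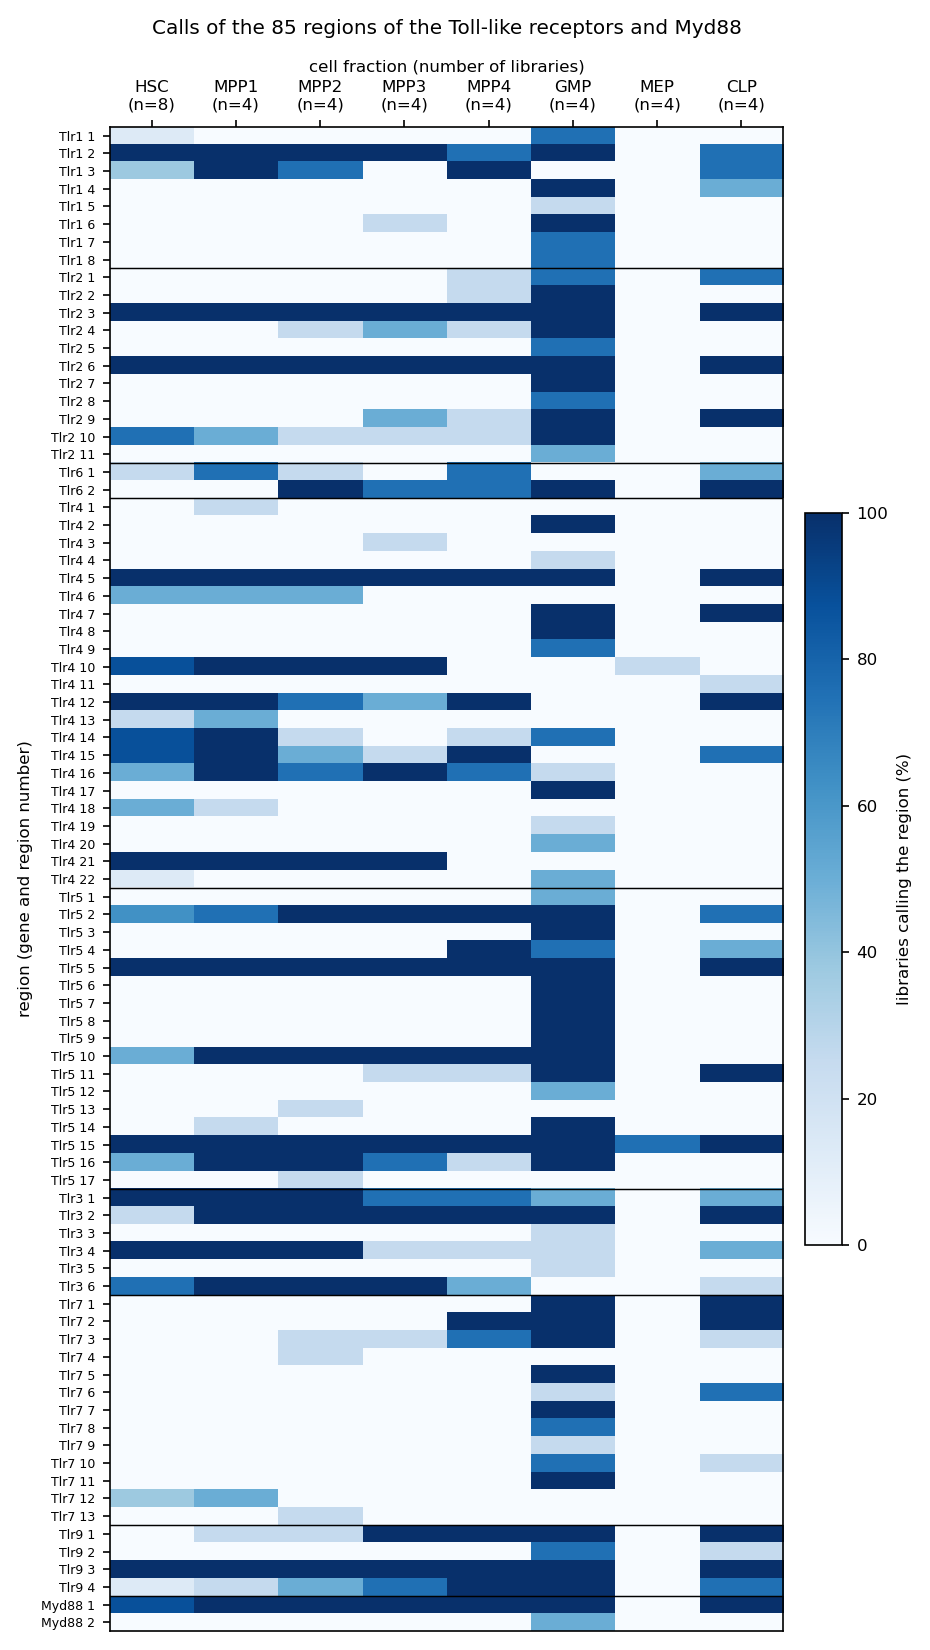
Share of libraries calling each of the 85 member regions (rows, grouped by gene) in the 8 fractions (columns). Shade runs from 0% to 100% of the libraries of a fraction. The GMP column is filled most widely and the MEP column is empty but for 2 regions.

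**Figure D2:**
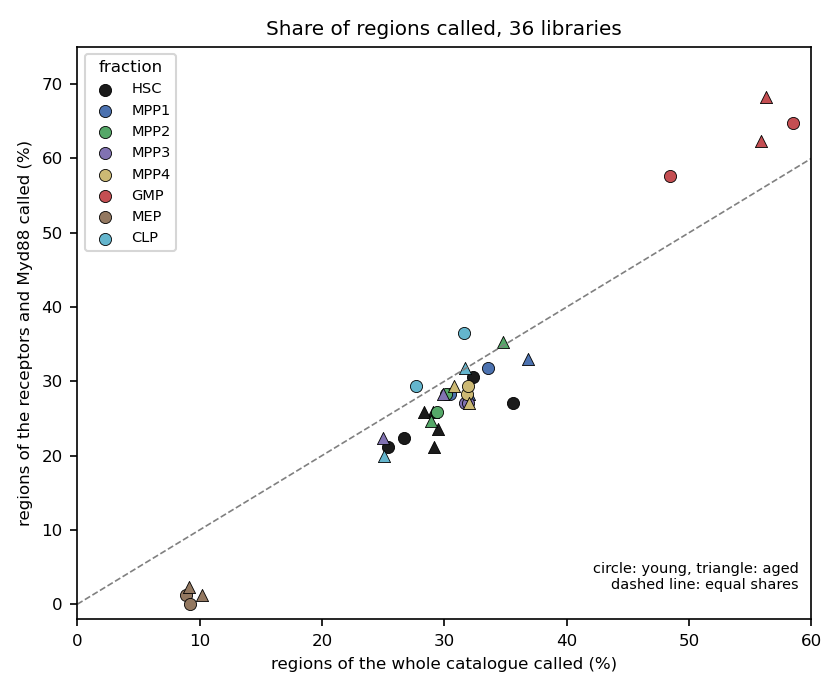
Share of the 85 member regions called (vertical axis, percent) against the share of all 105005 regions called (horizontal axis, percent), 1 point per library, coloured by fraction (circles young, triangles aged), with a dashed line of equal shares. The 4 GMP libraries sit at 57.6% to 68.2% of the member regions, above all others, and the 4 MEP libraries at 0 to 2 regions.

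To ask where GMPs differ from HSCs, the libraries calling each region were compared by a two-sided Fisher's exact test over all regions called in either fraction, with Benjamini-Hochberg adjustment. In GMPs, 26 of the 78 member regions tested were more often called, or 33.3%, where 22.8% of all regions tested were. In HSCs 4 of 78 were more often called, where 3.12% of all were. The 26 regions comprised 7 of Tlr5, 6 of Tlr7, 4 of Tlr2, 4 of Tlr4, 2 of Tlr1, 2 of Tlr9 and 1 of Tlr6, and none of Tlr3 or Myd88. All but 1 of them were called in 4 of 4 GMP and 0 of 8 HSC libraries, for which the exact adjusted p was 0.00901, the smallest this test gave. They lay from 83 bp to 646 kb from the TSS, 9 in introns and 17 between genes, of which 2 were centred at promoters. In 12 member regions (14.1%, against 8.81% of the catalogue) all 4 GMP libraries and no other library made the call: 5 of Tlr5, 3 of Tlr4, 3 of Tlr7 and 1 of Tlr2.

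Tlr2 is the shared subunit of the lipoprotein receptors (chr3:83836272-83841767, minus strand). Around it, 4 regions were more often called in GMPs than in HSCs: region 2 in its intron, 2.18 kb downstream of the TSS, and regions 4, 7 and 9 at 3.65, 25.4 and 43.5 kb upstream. In GMPs region 2 stood at 13.2 to 16.7 and region 7 at 8.78 to 9.38, with 1 young MPP4 library at 5.04 in region 2 and no other call outside GMPs. Region 9 (chr3:83885091-83885538, intergenic) had fold enrichments of 26.6 and 30.8 in young GMPs and 27.6 and 31.3 in aged GMPs. In CLPs its values were 9.57 and 8.62 (young) and 8.64 and 6.6 (aged), and the MPP3 and MPP4 libraries that called it reached 8.02 to 11.3. All 4 GMP values exceeded every other value, and no HSC, MPP1, MPP2 or MEP library called the region. Region 4 (chr3:83845219-83845619, intergenic) was as even within GMPs, at 20, 20.2, 19.7 and 19.5, with 6.44 to 8.5 in the 4 MPP libraries that called it. The libraries outside GMP that called both regions 4 and 9 were replicate 2 of young MPP3, replicate 2 of young MPP4 and replicate 2 of aged MPP3. The first pair had the highest neutrophil marker counts of MPP3 and MPP4 given above.

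Beside these, Tlr2 had an open start site and an open distal region in all 32 libraries outside MEP and in no MEP library. Region 3 (chr3:83841071-83841882) lies in an intron next to the TSS, and its HSC fold enrichments ran from 7.84 over a median of 10.1 to 12.2, with 8.48, 8.34, 9.59 and 7.58 in GMPs. Region 6, 21.4 kb upstream, whose sequence is shown above, ran from 16.1 over 19.3 to 20.8 in HSCs and stood at 30.7, 29.8, 31.4 and 28.4 in GMPs. As deposited, the GMP values of region 6 lay above all others, while those of region 3 lay within the range of the other fractions. On the centred scale of the tests, region 6 differed between GMPs and HSCs by 0.08 in log2 (limma adjusted p = 0.447) and region 3 was lower in GMPs (-0.84, limma adjusted p = 1.90e-05). The other 5 regions of Tlr2 were called in 2 to 15 libraries, region 10 in an intron of the neighbouring gene Tmem131l in 6 HSC and 4 GMP libraries.

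Tlr1, a partner of Tlr2 for triacylated lipoproteins (chr5:64924679-64933561, minus strand), had 2 regions of the GMP kind. Region 6 (chr5:64922921-64923344), 9.63 kb downstream of the TSS and just past the gene's end, stood at 15.7, 18.5, 16.9 and 18.7 in GMPs and otherwise only at 8.02 in an aged MPP3 library. Region 4, 36 kb downstream, stood at 7.81 to 11.5 in GMPs and at 7.01 and 6.6 in 1 young and 1 aged CLP library, and its call difference no longer passed with peaks of −log10 q of at least 10 (exact adjusted p = 0.0508). Its start-site region 7 was weak, called in 3 GMP libraries at 5.08 to 12.1 and nowhere else. The broadest region was the distal region 2 (48.4 kb downstream), called in 30 libraries, with HSC values from 9.34 over 11.1 to 16.3 and GMP values of 21.1, 23.7, 21 and 22. As deposited, every GMP value was above every HSC value there, but the centred log2 difference of 0.32 did not pass (limma adjusted p = 0.0713). Region 3 was called in 17 libraries and in no GMP or MEP library, and the other 3 regions of Tlr1 in 1 to 4 libraries.

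Tlr6, the partner for diacylated lipoproteins (chr5:64952031-64960047, minus strand), had 2 regions that differed in where they were open. Region 2 (chr5:64960732-64961490, intergenic), 1.06 kb upstream of the TSS and shown above, was called in 18 libraries. Its values were 12.9, 14.5, 15.2 and 12.2 in GMPs, 7.28, 7.97, 7.3 and 11.6 in CLPs and 4.22, 5.19, 5.89 and 6.91 in MPP2s, with 3 libraries each of MPP3 (4.69 to 8.17) and MPP4 (5.5 to 7.61). No HSC, MPP1 or MEP library called it, and the GMP values overlapped none of the others. Region 1, in an intron 534 bp downstream of the TSS, was called in 11 libraries at 4.46 to 6.52, among them 2 HSC and 3 MPP1 libraries but no GMP library.

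Tlr4, the lipopolysaccharide receptor (chr4:66827584-66930284, plus strand), had the most regions, 12 of them 361 to 882 kb downstream in a stretch with no nearer protein-coding TSS. Its start-site region 5 (chr4:66827304-66828344, centred in the 5′ UTR) was called in all 32 libraries outside MEP. The HSC values ran from 10.2 over 11.1 to 12.6, the GMP values were 27.7, 33.5, 29.6 and 29.2, and the CLP values 13.8, 16.3, 20.5 and 25.2. GMPs stood above every other fraction, and all CLP values above all HSC values. In an intron, 24.6 kb downstream, region 8 (chr4:66852032-66852376) was called in GMPs alone, at 22.5, 21.6, 25.9 and 21.3. Region 7, also intronic at 15.8 kb, stood at 17, 22.4, 20 and 23.4 in GMPs and at 4.79, 9.61, 6.48 and 13.4 in CLPs and was called in no other library. Region 2, 30.6 kb upstream, and region 17, 646 kb downstream, were also called in all GMP libraries and no other, at 12 to 15.3 and 8.39 to 17.1.

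Tlr4 was also the only member with regions more often called in HSCs than in GMPs: regions 10, 12, 15 and 21. The distal region 21 (chr4:67677558-67678188, intergenic, 850 kb downstream) had HSC values from 19.6 over 20.5 to 25.1. In MPP1s it stood at 19.8, 21.5, 23.5 and 19.7, in MPP2s at 17.6, 20, 17.7 and 11.3 and in MPP3s at 14.5, 12.6, 8.58 and 12.1. No MPP4, GMP, MEP or CLP library called it, and all MPP3 values lay below all HSC values. Region 10 (chr4:66927545-66928022), in an intron 100 kb downstream, was called in the same 4 fractions and 1 aged MEP library, highest in MPP2s at 14.5 to 22.7 and lower in HSCs, at 6.07 to 11.1 in 7 of 8 libraries. Regions 12 and 15, at 369 and 597 kb, were called in 8 and 7 HSC libraries, at 5.79 to 15 and 5.35 to 15.3, and 0 GMP libraries, but also in MPP4s (8.47 to 10.5 and 6.81 to 10.7) and CLPs (7.56 to 8.62 and 7.98 to 10.8). For region 21 and region 12, in 8 of 8 HSC and 0 of 4 GMP libraries, the exact adjusted p was 0.00901, and for regions 10 and 15, in 7 of 8 and 0 of 4, it was 0.0390. The count of 4 fell to 2 without any 1 of the HSC libraries except replicate 2 of aged HSCs, or without any 1 GMP library except replicate 2 of young GMPs. With 50% cover regions 10, 12 and 15 no longer passed (exact adjusted p = 0.409, 0.171 and 0.171), and with peaks of −log10 q of at least 10, regions 10 and 15 did not (exact adjusted p = 0.156 for each). Region 21 passed under both. Of the remaining Tlr4 regions, region 16 was called in 19 libraries at 4.28 to 14.5, the lowest of them the 1 GMP library, region 6 in 8 HSC, MPP1 and MPP2 libraries at 3.37 to 6.25, region 18 in 4 HSC libraries and 1 MPP1 library, region 14 in 16 libraries at 4.84 to 9.79, and the other 9 in 1 to 4 libraries.

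**Figure D3:**
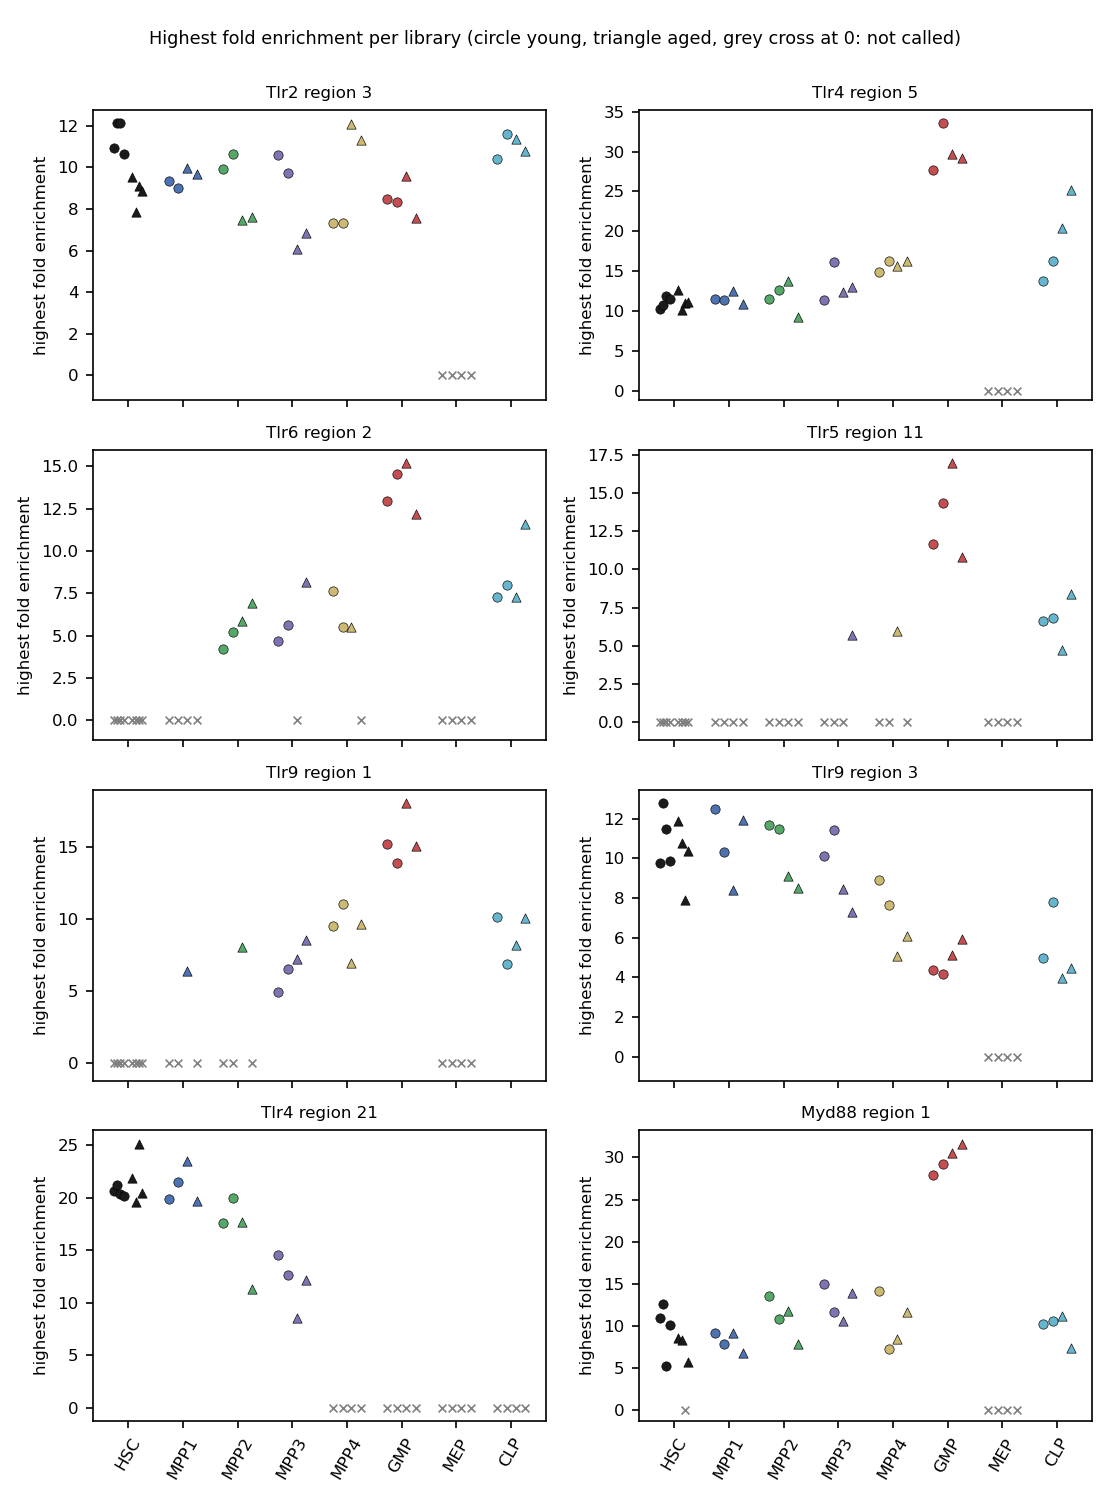
Fold enrichment (vertical axis) in each library by fraction (horizontal axis) at 8 member regions, young libraries as circles and aged libraries as triangles, with a grey cross at 0 where the region was not called. The GMP points are highest in the panels of Tlr4 region 5, Tlr6 region 2, Tlr5 region 11, Tlr9 region 1 and Myd88 region 1 and, in that of Tlr9 region 3, lie at 4.18 to 5.93, below all HSC points.

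Tlr5, the flagellin receptor (chr1:182954788-182976044, plus strand), had 7 regions more often called in GMPs. With peaks of −log10 q of at least 10, regions 8 and 9 no longer passed (exact adjusted p = 0.0508 for each), and with 50% cover region 8 did not (exact adjusted p = 0.0561). Regions 3, 6, 7, 8 and 9, at 31.8, 19.2, 17, 9.92 and 9.04 kb upstream, were called in all 4 GMP libraries and no other. Of these region 3 (chr1:182922819-182923161) was the highest, at 14.2, 18.9, 17.9 and 15.6, and the others stood at 7.54 to 15.3. The start-site region 11 (chr1:182953621-182954100), 927 bp upstream and shown above, stood at 11.7, 14.3, 17 and 10.8 in GMPs and at 6.65, 6.8, 4.69 and 8.42 in CLPs. It was also called in 1 aged MPP3 library at 5.7 and 1 aged MPP4 library at 5.96, so the GMP values did not overlap the rest. When peaks had to cover 50% of region 11, its call difference between GMPs and HSCs no longer passed (exact adjusted p = 0.509). Region 14, in an intron, was called in all GMP libraries at 8.32 to 12.1 and in 1 young MPP1 library at 6.37.

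Downstream of Tlr5, region 15 (chr1:182983020-182983453, intergenic, 11.1 kb from the nearer of the gene's TSSs) was the most widely called member region, in 35 libraries. Its values were 34.8, 36, 36.1 and 34.9 in GMPs, from 9.9 over 12.2 to 21.1 in HSCs, and 10.1, 7.87 and 6.47 in the 3 MEP libraries that called it. The GMP values lay above all others, and 2 of the 3 MEP values below all others. The region holds 14 unresolved bases of the reference, at the edge of a gap of 100 bases. The reference sequence near regions 16 and 17, 68.9 and 69.6 kb downstream, is also incomplete, and heights beside such gaps may be less certain. Region 5 (26.1 kb upstream) was called in all 32 libraries outside MEP, from 5.88 over 8.27 to 11.5 in HSCs and at 17.9, 19, 17.1 and 15.1 in GMPs. Region 2 (27 libraries), region 10 (24 libraries) and region 16 (20 libraries) were also called in all GMP libraries (18.3 to 24.1, 8.13 to 10.8 and 11.2 to 17.1) and in 4 or 5 HSC libraries (4.84 to 10.7, 5.91 to 10.1 and 4.28 to 7.82), and the other 5 regions of Tlr5 in 1 to 9 libraries.

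Tlr3, which senses double-stranded RNA and signals through TRIF (chr8:45395665-45410619, minus strand), had no region that differed between GMPs and HSCs past the threshold. Its start-site region 1 (chr8:45409896-45410639, in an intron) was called in 26 libraries, from 7.14 over 8.48 to 10.8 in HSCs, and in 2 GMP libraries at 7.6 and 5.51. Region 4, 28.8 kb upstream, was called in all 8 HSC libraries (6.26 to 10.3) and in 1 GMP library at 7.86, a difference that missed the threshold (exact adjusted p = 0.0560). Region 2, 4.54 kb upstream, ran the other way, with 10.3, 10.9, 13.4 and 12.4 in GMPs and calls in 2 HSC libraries at 6.62 and 5.19. Region 6 was called in 21 libraries at 4.75 to 13.1, none of them GMP or MEP, and regions 3 and 5 in 1 GMP library each.

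Tlr7, the receptor for single-stranded RNA (chrX:167304929-167330558, minus strand), had 6 regions more often called in GMPs. Region 2 (chrX:167315837-167316188), in an intron 14.5 kb downstream of the TSS, was called in exactly 3 fractions: GMPs at 11.9, 15.3, 19.6 and 18, CLPs at 11.4, 10.1, 12.8 and 12.3 and MPP4s at 12.5, 8.51, 12.2 and 9.5. The lowest GMP value lay within the CLP and MPP4 ranges. Region 1, 28.2 kb downstream, stood at 12.2 to 16.9 in GMPs and 4.86 to 8.25 in CLPs. Regions 5, 7 and 11 were called in all GMP libraries and no other, region 5 at 13.8, 16.2, 13.8 and 14.4, region 7 at 8.15 to 11.4 and region 11, in an intron of Prps2, at 8.65 to 16.4. The start-site region 8 was called in 3 GMP libraries only, at 6.32 to 7.11. Region 12, also in Prps2, was called in 3 HSC and 2 MPP1 libraries at 5.62 to 7.99, and the other 5 regions in 1 to 4 libraries. Region 3, an intronic region at 9.62 to 11.6 in GMPs, was also called in 3 MPP4 libraries and in 1 library each of MPP2, MPP3 and CLP.

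At Tlr9, the CpG DNA receptor (chr9:106222598-106226883, plus strand), the start site and the coding exon went opposite ways. Region 1 (chr9:106222289-106222740), 83 bp upstream and shown above, stood at 15.2, 13.9, 18.1 and 15.1 in GMPs, 10.2, 6.86, 8.23 and 10.1 in CLPs, 9.52, 11.1, 6.96 and 9.69 in MPP4s and 4.93, 6.55, 7.24 and 8.59 in MPP3s. It was called in 1 aged MPP1 library (6.39), 1 aged MPP2 library (8.09) and no HSC or MEP library. Region 3 (chr9:106226066-106226667), in the coding exon 3.77 kb downstream, was called in all 32 libraries outside MEP, from 7.88 over 10.6 to 12.8 in HSCs. There the GMP values were 4.38, 4.18, 5.13 and 5.93 and the CLP values 4.97, 7.78, 3.99 and 4.49. All GMP and CLP values of region 3 lay below all HSC values, whereas those of region 1 had no HSC counterpart. Region 4, 7.75 kb downstream and past the gene's end, stood at 11.9, 10.5, 13.6 and 10.4 in GMPs and at 4.86 in the 1 HSC library that called it (exact adjusted p = 0.0390). That call was lost without any 1 library except replicate 2 of young HSCs (exact adjusted p up to 0.0866). Region 2, in an intron, was called in 3 GMP libraries and 1 CLP library at 3.65 to 6.27.

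Myd88, the adaptor (chr9:119335934-119340041, minus strand), was not among the genes with a GMP difference in calls. Its region 1 (chr9:119334254-119334828), 5.5 kb downstream of the TSS in an intron of Slc22a14 and shown above, was called in 31 libraries. Values were 27.9, 29.3, 30.6 and 31.6 in GMPs, ran from 5.27 over 8.6 to 12.6 in the 7 HSC libraries that called it and reached 15 at most elsewhere. The GMP values did not overlap the rest. The start-site region 2, centred in the 5′ UTR, was called in 2 GMP libraries only, at 4.24 and 4.54. A region called in all 36 libraries (chr9:119340833-119341597) lies 1174 bp upstream of the Myd88 TSS in the direction of transcription, but the nearest TSS to its centre is that of Acaa1a, so the rule left it out.

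Where CLPs were compared with HSCs in the same way, 7 of 46 member regions tested were more often called in CLPs (15.2%), where 6.18% of all regions tested were, and 1 of 46 in HSCs, where 3.87% of all were. The 7 were Tlr2 region 9, Tlr6 region 2, Tlr4 region 7, Tlr5 region 11, Tlr7 regions 1 and 2 and Tlr9 region 1, each in 4 of 4 CLP and 0 of 8 HSC libraries (exact adjusted p = 0.0201), and all were also more often called in GMPs. Tlr4 region 21 was the one more often called in HSCs. With any 1 CLP library left out, none of the 7 passed, and neither did Tlr4 region 21 (exact adjusted p up to 0.0550). At −log10 q of at least 10, Tlr2 region 9, Tlr4 region 7, Tlr5 region 11 and Tlr7 region 1 did not pass. Their exact adjusted p ran from 0.109 to 0.749. Under 50% cover, Tlr2 region 9, Tlr6 region 2 and Tlr5 region 11 were lost (exact adjusted p = 0.319, 0.723 and 0.117). Tlr7 region 2, Tlr9 region 1 and Tlr4 region 21 passed under both settings. Because both comparisons share the HSC libraries, their overlap is not independent.

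MEPs had almost no called regions near the receptors. No member region was more often called in MEPs than in HSCs (0 of 31 tested, where 0.909% of all regions were), and 13 of 31 were more often called in HSCs (41.9%), where 21.1% of all were. The 13 were Tlr4 regions 5, 12, 14, 15 and 21, Tlr2 regions 3 and 6, Tlr3 regions 1 and 4, Tlr1 region 2, Tlr5 region 5, Tlr9 region 3 and Myd88 region 1. Tlr2 region 3 and region 6, Tlr4 region 5, Tlr5 region 5 and Tlr9 region 3 were each called in every library outside MEP and no MEP library, a pattern of 5.88% of the member regions and 3.02% of the catalogue. Only Tlr5 region 15 and Tlr4 region 10 were called in a MEP library at all. With peaks required to cover 50% of a region, 6 member regions passed, and with peaks of −log10 q of at least 10, 8 did. Tlr4 regions 14 and 15, Tlr3 region 4 and Myd88 region 1 lost their call under both. Tlr2 region 3, Tlr4 region 12 and Tlr3 region 1 lost it with 50% cover alone, and Tlr5 region 5 with the limit on q alone. Leaving out 1 library ended the calls of Tlr4 regions 14 and 15 and Myd88 region 1 in 11 of 12 cases each.

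Within LSK cells, the 12 libraries of the fractions MPP2, MPP3 and MPP4 (the CD48+ set) were set against the 12 of HSCs and MPP1s (the CD48- set). Of 49 member regions tested, 1 was more often called in the CD48+ set, where 1.41% of all regions were, and 1 in the CD48- set, where 1.44% of all were. Tlr6 region 2 was called in 10 of 12 CD48+ and 0 of 12 CD48- libraries (adjusted p = 0.00802, Fisher's exact test). Tlr4 region 14 (chr4:67387773-67388223), 560 kb downstream, was called in 2 of 12 CD48+ and 11 of 12 CD48- libraries (adjusted p = 0.0319, the same exact test). Tlr9 region 1, in 9 of 12 CD48+ and 1 of 12 CD48- libraries, missed the threshold (adjusted p = 0.0809). Neither Tlr6 region 2 nor Tlr4 region 14 passed when peaks had to cover 50% of the region. At −log10 q of at least 10, Tlr6 region 2 did not pass (adjusted p = 0.848, Fisher's exact test). Tlr4 region 14 did (adjusted p = 0.0216, the same exact test).

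Heights were compared at regions that every library of both fractions called, on log2 fold enrichment centred on each library's median, with limma. For GMPs against HSCs 7 member regions entered. Higher in GMPs were 3 of 7, where 21.1% of all regions tested were: Tlr4 region 5 by 0.83 (SE 0.106, adjusted p = 2.31e-06), Tlr5 region 15 by 0.78 (SE 0.136, adjusted p = 8.55e-05) and Tlr5 region 5 by 0.44 (SE 0.146, adjusted p = 0.0156). Higher in HSCs were 2 of 7, where 30.3% of all were. At Tlr9 region 3 the difference was -1.70 (SE 0.151, adjusted p = 1.99e-08) and at Tlr2 region 3 it was -0.84 (SE 0.128, adjusted p = 1.90e-05). Tlr1 region 2 (0.32) and Tlr2 region 6 (0.08) did not pass. The median difference was 0.32 over the 7 regions and -0.06 over all regions. Centring matters here: without it the median over all regions was 0.53, and 92.1% of the passing regions were higher in GMPs instead of 41.1%. On that scale 5 member regions were higher in GMPs, Tlr9 region 3 remained lower and Tlr2 region 3 no longer passed (-0.25, adjusted p = 0.111).

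For CLPs against HSCs 7 member regions entered as well. Tlr4 region 5 was higher in CLPs by 0.66 (SE 0.123, limma adjusted p = 0.000359), 1 of 7, where 8.71% of all regions were. Higher in HSCs were 2 of 7, where 15.5% of all were: Tlr9 region 3 at -1.10 (SE 0.159, adjusted p = 1.93e-05) and Tlr4 region 12 at -0.57 (SE 0.181, adjusted p = 0.0246). Tlr4 region 12 no longer passed without centring (-0.50, limma adjusted p = 0.0633), on within-library percentiles (limma adjusted p = 0.144), or without replicate 1 or replicate 2 of aged CLPs (limma adjusted p up to 0.112). The other 4 differed by -0.03 to 0.10. Without centring, 49.9% of all passing regions were higher in CLPs, instead of 36%. No member region was called in all HSC and MEP libraries, so heights could not be compared there.

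The study's question was what age changes, and at these genes no change passed a threshold. With a model of read counts, the study reported regions more open or closed in aged HSCs, and read counts were not used here. In HSCs, 0 of 31 member regions differed in calls between 4 aged and 4 young libraries, where 0% of all 51625 regions did. This Fisher's exact test cannot give a p under 0.0286, which adjustment over all regions takes past the threshold, and at an unadjusted p under 0.05 it had 222 regions more often called in aged and 143 in young HSCs, no member among them. Over all fractions, with an exact test that held the fraction fixed, 0 of 64 members passed, where 0% of all did. There the unadjusted counts were 611 for aged and 558 for young, with 2 members, both more often called in young: Tlr3 region 4 and Tlr4 region 15, each with an exact p of 0.0417 before adjustment. Tlr3 region 4 was called in every HSC, MPP1 and MPP2 library, and in MPP3, MPP4, GMP and CLP libraries only of young mice. Tlr4 region 15 was called in all MPP1 and MPP4 libraries and, in MPP2s and MPP3s, only of young mice. Both aged libraries of MPP3 and of MPP4, and no young library of either, hold the word new in their peak names. In these fractions age and that mark cannot be told apart. Under settings other than leaving out 1 library, the aged minus young difference ran from -35.7 to -6.25 percentage points for Tlr3 region 4. For Tlr4 region 15 it ran from -33.3 to -18.75.

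Heights in HSCs gave 0 of 11 member regions past the limma threshold, where 0.0231% of all regions passed. Tlr2 region 3 came nearest, at 10.9, 12.2, 12.1 and 10.7 in young HSCs and 9.53, 7.84, 9.13 and 8.88 in aged HSCs. These values did not overlap, and the log2 difference was -0.38 (SE 0.154, limma, adjusted p = 0.477). The other 10 differed by -0.30 to 0.26, and the median was -0.04 over the 11 and -0.01 over all regions. Over the 7 fractions outside MEP, 0 of 6 member regions passed, where 0.0358% of all did. Tlr9 region 3 was lower in aged libraries, at -0.24 (SE 0.0869, limma, adjusted p = 0.498), and Tlr5 region 15 at -0.18 (SE 0.0717, limma, adjusted p = 0.528). In simulated HSC libraries, 78% of regions changed 2-fold with age were recovered and 22% of those changed 1.5-fold, so smaller changes would mostly be missed.

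**Figure D4:**
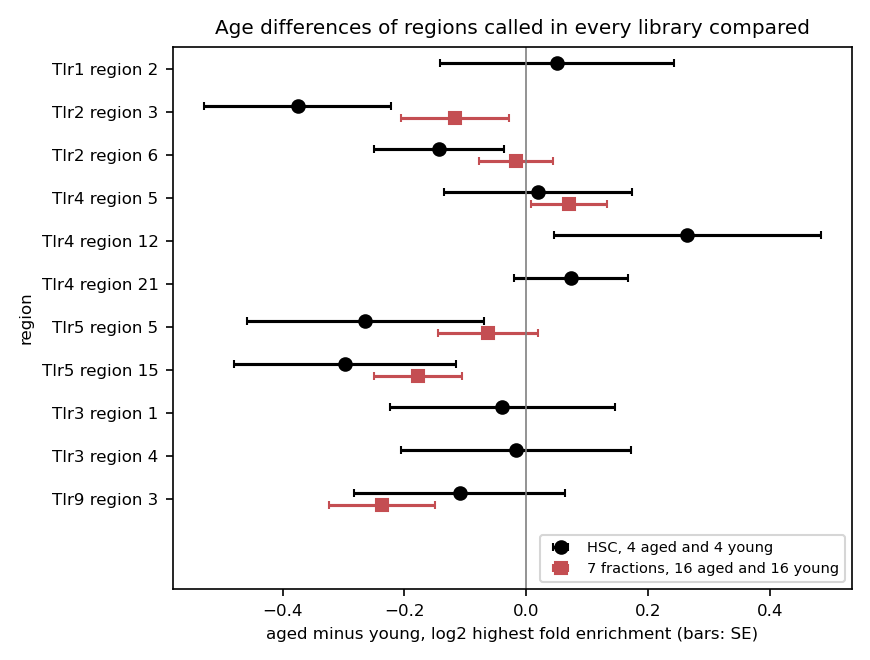
Aged minus young difference in log2 fold enrichment (horizontal axis) at the member regions tested in HSCs (11) and in the 7 fractions outside MEP (6), with bars of 1 SE. Tlr2 region 3 in HSCs lies farthest from 0, at -0.38, and none passed the adjusted threshold.

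The start sites of the members were set beside those of 44 other genes of the pathway, of which 42 had a region within 1000 bp of a TSS. None of the 9 member start-site regions was called in all 36 libraries, against 13 of the 42 pathway regions (31%) and 32.6% of those of all protein-coding genes. More often called in GMPs than HSCs were 2 of 9 member regions (Tlr5 region 11 and Tlr9 region 1), 5 of 41 pathway regions tested (12.2%) and 5.45% of all. The 5 belonged to the receptors Tlr8 and Tlr13, the co-receptor gene Ly86 (MD-1), the kinase Ikbke and the cytokine Tnf, each called in every GMP and no HSC library. In mean height, with uncalled libraries at 0, they differed by 7.22 (Tlr8), 13.9 (Tlr13), 6.64 (Ly86), 17.7 (Ikbke) and 7.65 (Tnf). By role, over the 42 genes with a region, other receptors gave 2 of 4, co-receptors 1 of 4, kinases and ligases 1 of 15 and target cytokines 1 of 4. Chaperones, other adaptors, transcription factors and inhibitors gave none. Tlr12, among the other receptors, was called in no GMP or HSC library and so was not tested. No pathway start site was more often called in HSCs than GMPs, where 1.63% of all start sites were. The 13 called in all 36 libraries were 6 of 15 kinases and ligases, 3 of 3 inhibitors, 2 of 3 chaperones, 1 of 4 other adaptors and 1 of 5 transcription factors, and none of the co-receptors, other receptors and target cytokines. More often called in HSCs than in MEPs were 3 of 4 member start sites tested, those of Tlr2, Tlr3 and Tlr4, against 4 of 34 pathway regions (11.8%) and 14.6% of all.

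**Figure D5:**
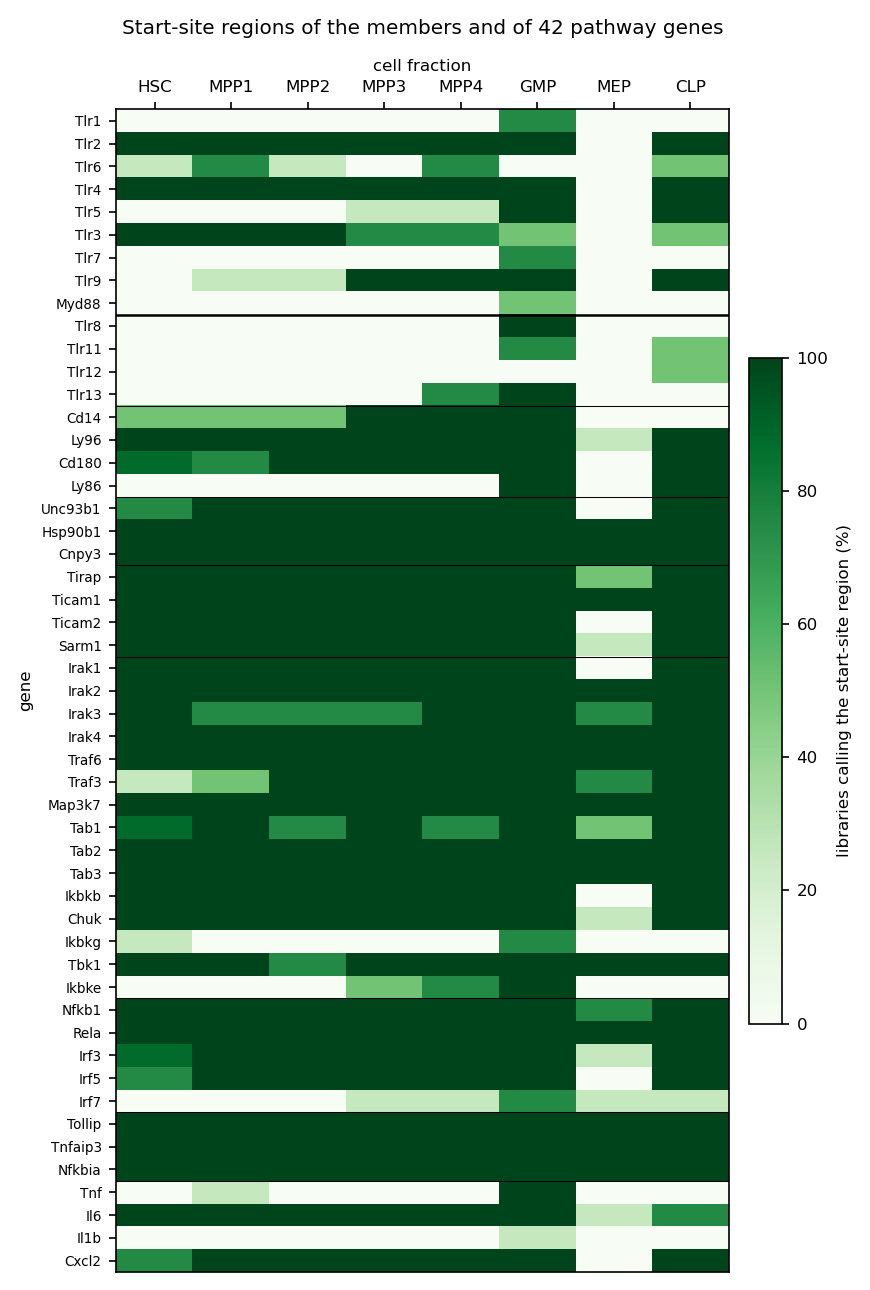
Share of libraries calling the start-site regions of the 9 members and of 42 pathway genes (rows) in each fraction (columns). Many signalling genes are called in every fraction (13 of the 42 in all 36 libraries), while none of the 9 members is.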

How the data were processed

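The deposited files were 36 peak lists, 1 per library. By the study's methods, 60-base single reads were aligned with Bowtie2 to mm10, subsampled with SAMtools to the same number per library, and peaks were called per library by MACS2 2.2.6 without a model at q 0.001. Columns used were the authors' fold enrichment (a ratio of peak height to local background) and the deposited −log10 q-value. The deposited −log10 p-value and score columns were not used for tests. Read counts per region were not used here, so depth per region is unknown and no counting interval is given. Peaks of all libraries were merged, assigned to the nearest TSS of GENCODE M21 protein-coding genes, and each library was given a call and its highest fold enrichment per region. Calls were compared by Fisher's exact test, or for age over all fractions by an exact conditional test with fraction as stratum, and heights by limma 3.58.1 (R 4.3.3) on log2 fold enrichment centred per library. All were two-sided, with Benjamini-Hochberg adjustment over the whole catalogue and a threshold of 0.05. Python 3.11.15, pandas 2.3.3, numpy 2.4.6, scipy 1.17.1 and matplotlib 3.10.9 were used. Alternatives were stricter peaks, 50% cover, values not centred, within-library percentiles, other TSS sets, a replicate block and each library left out. Both tests were checked on simulated data.

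Regions are described with their values where they are centred at a member's promoter, pass a test or are called by at least 18 libraries, and a few others were added after their values were seen. The members and gene lists were chosen with earlier results of these data known. In 9 of 18 aged and 2 of 18 young libraries the peak names hold the word new, whose meaning is not given in the sources used here.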

Additional observations from a re-analysis of the deposited data

Results flagged for a closer look

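Heights were compared between ages within fractions at the 6 member regions called in all 32 libraries outside MEP. At 3 of these every aged library lay above every young library in some fractions and below in others. Tlr2 region 3 was higher in both aged than both young libraries of MPP1 and MPP4 and lower in aged HSCs, MPP2s and MPP3s. In MPP4s it stood at 7.31 and 7.33 (young) and 12.1 and 11.3 (aged), and in MPP3s at 10.6 and 9.75 (young) and 6.1 and 6.84 (aged). Both aged libraries of MPP3 and of MPP4, and no young library of either, hold the word new in their peak names, so in these fractions age and that mark cannot be told apart. The p of the age by fraction term was 7.947e-05 (limma F test, adjusted p = 0.724 over 11159 regions, of which 0 passed).

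Tlr5 region 5 was higher in aged CLPs and lower in aged GMPs, with a p for the same limma term of 0.6778 (adjusted p = 1). Tlr9 region 3 was higher in aged GMPs and lower in aged MPP2s, MPP3s, MPP4s and CLPs, with a p of 0.1961 (limma, adjusted p = 1). With 2 libraries per age, groups that do not overlap are common. In 30 groups of 4 HSC libraries, each a region or the number of member regions called at 1 age, no library stood apart from the other 3 by Dixon's gap test.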

How the results depend on the processing

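No result changed direction under the alternatives run. The count of 26 member regions more often called in GMPs stayed at 25 to 29. Those more often called in HSCs than GMPs ranged from 2 to 4 with 1 library left out, and of the 4 named, Tlr4 regions 10, 12 and 15 lost their call with 50% cover and regions 10 and 15 with the stricter q (peaks of −log10 q of at least 10), though the count was 3 under each. Against CLPs, those more often called in CLPs were 3 with the stricter q, and 0 to 7 with 1 library left out, and those more often called in HSCs were 2 and 0 to 3. Against MEPs, those more often called in HSCs were 8 with the stricter q, 6 with 50% cover and 10 to 12 with 1 library left out. Those more often called in CD48+ fractions were 0 with the stricter q, 0 with 50% cover and 1 to 2 with 1 library left out, and in CD48- fractions 0 with 50% cover. For heights, not centring gave 5 regions higher in GMPs and 1 higher in HSCs, and the stricter q gave 1 higher in HSCs. Against CLPs, those higher in HSCs were 1 not centred, 1 by percentiles, 0 with the stricter q and 1 to 3 with 1 library left out. The cause of these changes was not tested. Among single regions that lost their call were Tlr6 region 2 in the CD48 test (adjusted p = 0.848 with the stricter q and 1 with 50% cover, Fisher's exact test) and Myd88 region 1 against MEPs (adjusted p = 0.214 and 1, the same exact test). With the TSSs of all transcripts, Tlr2 had 7 regions and Myd88 had 1. Over the alternatives run for region numbers, Tlr6 had 1 to 2 regions.

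Replicate numbers are shared between ages, but same-numbered HSC libraries correlated at 0.0783, 0.0944, 0.1786 and -0.0792 in their deviations over 17340 regions, so the numbers do not show a pairing. Young replicates 1, 2 and 4 correlated positively with aged replicates 1 and 2 and negatively with aged replicates 3 and 4. Young replicate 3 ran the other way, at -0.1953 and -0.167 with aged replicates 1 and 2. With aged replicates 3 and 4 it stood at 0.1786 and 0.1852. Deviations were taken from the mean of each age and so cancel within an age, which makes mixed signs partly built in. The cause of these sets was not tested. With the replicate block 0 member regions passed in the age test of calls over all fractions and in the age fits of heights in HSCs and in the 7 fractions outside MEP (calls in HSCs alone were not run with it), and Tlr2 region 3 in HSCs stood at an adjusted p of 0.4263 (limma). The fits of heights over the 7 fractions outside MEP were chosen after seeing the data, as no member region was called in all 36 libraries, and so was the age test of calls without MEPs. For heights between MEPs and HSCs and over all 36 libraries there is no value for a member.

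The files hold peaks and not reads, so a region not called can lie just under the peak threshold, and fewer peaks in MEPs limit what is seen there. With 4 libraries against 8, the exact test depends on how many other regions differ as fully: in simulated GMP and HSC calls with 200 such regions among 91636 it recovered 0, and with 18327 it recovered all.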

Other observations

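Start sites of accessory genes of the pathway varied as well. Ly96, Unc93b1, Il6 and Il1b were named here after their values were seen. Ly96 (MD-2), which binds lipopolysaccharide with TLR4, was called in every library outside MEP and in 1 MEP library, with mean fold enrichments of 9.37 in HSCs, 17.4 in GMPs and 16.8 in CLPs. Unc93b1, which carries the endosomal receptors to their compartment, was called in 6 of 8 HSC libraries, in every MPP, GMP and CLP library and in no MEP library, at 5.99 in HSCs and 12 in GMPs on average. Ly86 (MD-1) was called in all 4 GMP and all 4 CLP libraries only, at 6.64 and 6.45. Tlr13 was called in all 4 GMP libraries (mean 13.9) and 3 MPP4 libraries (mean 7.01), and Ikbke in all 4 GMP (mean 17.7), 3 MPP4 and 2 MPP3 libraries. The cytokine gene Il6 was called in 32 libraries, among them every HSC, MPP and GMP library, at 8.59 in HSCs and 10.3 in GMPs on average. Il1b was called in 1 GMP library only.

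The genes whose highest region per library followed a member's most closely, by Pearson's r over 36 libraries, were Cdc16 for Tlr2 (0.992), Slc7a11 for Tlr4 (0.986), BC051665 for Tlr9 (0.985), Zfp947 for Tlr3 (0.984), Rap2b for Tlr1 (0.982), Il13ra1 for Myd88 (0.967), Tex44 for Tlr5 (0.956), Reep1 for Tlr6 (0.885) and Tet2 for Tlr7 (0.831). In all of these but Tet2 the number of libraries with any call equalled the member's, and the points share libraries, so these values describe likeness only. Marco and Cysltr1 followed next for Tlr7, at 0.828 and 0.825.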
